A study of Mus musculus with 16 samples.

Results

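The left ventricle, the main pumping chamber of the heart, was compared between 4 mice labelled Adipo-HuR KO and 4 mice labelled wild-type. These 8 libraries were taken by their tissue label from 16 libraries in all, the others being of subcutaneous white fat. Every mouse was of the C57BL/6J strain and 28 weeks old, and each library came from a different mouse. The wild-type hearts were from mice A5, A7, A8 and A14, and the hearts labelled Adipo-HuR KO, called knockout hearts below, from A25, A29, A30 and A31. The genotype label stands for deletion of the gene of the RNA-binding protein HuR in adipocytes, so the heart was not a tissue meant to lose the gene. The sources used here name neither the Cre driver nor the alleles that the wild-type mice carried. Values are TPM as deposited, a transcript abundance per unit of transcript length with 1 common total for all libraries. Sequencing depth is unknown.

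HuR, encoded by Elavl1, binds AU-rich elements in messenger RNAs and in many cases stabilizes them. A stressed ventricle is known to re-express fetal genes, to deposit collagen made by activated fibroblasts, to gather macrophages and to use less fatty acid as fuel. The design asks how the transcripts of the heart differ when HuR is to be removed from fat cells. In bulk tissue, fewer cells of a type and less RNA per cell cannot be told apart.

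Elavl1 stood at 6.66, 12.6, 12.04 and 10.4 TPM in A5, A7, A8 and A14. Elavl1 was at 10.3, 15.9, 8.45 and 8.82 TPM across A25, A30, A31 and A29. The groups overlapped and the difference was within the spread between mice (log2 change -0.21 with SE 0.27, limma adjusted p = 0.926; exact permutation p = 0.857). The heart value does not check the genotype label, because the deletion was to be made in another tissue. Its direction was not stable. Before the shift of all genes was subtracted the fold change was 0.05, to which the SE and p-values belong. With median-of-ratios scaling the fold change was -0.25.

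The cardiomyocyte genes Myh6 (alpha-myosin heavy chain), Tnni3 (cardiac troponin I) and Myl2 (ventricular regulatory light chain) were abundant in all 8 libraries, the lowest value being 1012 TPM for Myh6 in A31, and the summed TPM of 8 cardiomyocyte markers was 20020 to 28060 in wild-type hearts and 13960 to 24710 in knockout hearts. Of 9 atrial markers, 5 passed the filter on low values, and the summed TPM of all 9 was 33.98 to 47.7 in wild-type hearts, 22.9 to 26.1 in A25, A30 and A31 and 31.98 in A29. Without A29, 2 of the 5 were higher and 2 lower by limma, as deposited and with median-of-ratios scaling. Among all tested genes 34.8% were higher and 4.16% lower as deposited, and 19.5% and 20.8% with median-of-ratios scaling. With all 8 libraries the groups did not overlap for 2 of the 5, both lower in knockout hearts, beside 0.634% of all tested genes. Sln and Bmp10 were at no more than 0.468 TPM, while Myl4, the atrial essential light chain, stood between 0.934 and 1.85 TPM in the wild-type group, with 4.86, 3.87 and 4.17 TPM for A25, A30 and A31 and 1.25 TPM for A29 (limma adjusted p = 0.177 with all 8 libraries and 0.00273 without A29).

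Markers of fat cells and skeletal muscle were measured as well. Of 14 adipocyte markers, 6 passed the filter on low values, and the summed TPM of all 14 was 398 to 829.7 in wild-type hearts, 706 to 826 in A25, A30 and A31 and 604 in A29. Most of that sum was Fabp4, which capillary endothelium also expresses, at 275 to 745 TPM. Adipoq and Plin1, defining genes of fat cells, were at no more than 1.72 and 0.698 TPM, both in A8, and Ucp1 was listed at 0 in 7 of the 8 hearts. Cidea, a lipid droplet protein, stood between 9.52 and 14.6 TPM in the wild-type group, with 22.2, 23.3 and 24.7 TPM for A25, A30 and A31 and 15.7 TPM for A29 (limma adjusted p = 0.142 with all 8 libraries and 0.00289 without A29), without overlap of the 2 groups of 4. The list as a whole did not point up. Without A29, 2 of the 6 were higher and 1 lower by limma (1 and 3 with median-of-ratios scaling), beside the shares of all tested genes given above. Their median log2 fold change, relative to that of all tested genes, was -0.78 with all 8 libraries and -0.85 without A29. Of 12 skeletal muscle markers, 3 passed the filter on low values, and the summed TPM of all 12 was 2.68 to 3.16 in wild-type hearts, 5.02 to 10.2 in A25, A30 and A31 and 3.62 in A29, with Myh1, Myh2 and Myh4 at no more than 0.0139 TPM. The part of these cell types in the results was not tested. Ddx3y and Eif2s3y, transcribed from the Y chromosome, were present in every library, at 16.6 to 29.1 TPM and 13.2 to 33.4 TPM.

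Of 11981 tested genes, 6 (0.0501%) rose in the knockout hearts and 0 (0%) fell by limma with all 8 libraries, and 2508 higher and 439 lower genes had an unadjusted p under 0.05. Groups did not overlap for 3.71% of genes with higher and 0.634% with lower values in knockout hearts. Over all tested genes the median log2 fold change was 0.26, and fold changes below are given after subtracting it (0.39 in fits without A29), on the log2(TPM + 1) scale, which understates the change of low genes. Calls were made before that subtraction. Each SE and p-value belongs to the fold change before subtraction and does not test the printed value. Fold changes under other processing are given without subtraction. The 6 genes that rose were mt-Nd3, Kcnj14, Gm5905, Gm13212, Rab6b and Znf41-ps. Leaving out A14 gave 7 genes higher, and leaving out A29 is described below. Leaving out any 1 of the other libraries gave 3, which were mt-Nd3, Kcnj14 and Gm5905 each time. Gm13212, Rab6b and Znf41-ps did not pass in those fits, and Rab6b did not pass without A14 either (limma adjusted p = 0.0928).

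For these 6 genes A29 lay with the other knockout hearts. mt-Nd3, a complex I subunit encoded in mitochondria, stood at 1937, 2372, 2413 and 2619 TPM in A5, A7, A8 and A14. mt-Nd3 measured 12775, 15953, 13276 and 15061 TPM across A25, A30, A31 and A29. Kcnj14, an inward rectifier potassium channel, stood at 0.7603, 0.815, 0.351 and 0.361 TPM in A5, A7, A8 and A14. Kcnj14 was at 22.9, 25.8, 20.8 and 16.1 TPM across A25, A30, A31 and A29. No wild-type heart came near the knockout hearts for either gene (log2 change 2.36 with SE 0.15, limma adjusted p = 2.5e-05 for mt-Nd3, and 3.57 with SE 0.23 and 2.8e-05 for Kcnj14). Rab6b, a small GTPase of Golgi transport best known from neurons, stood at 0.0493, 0.269, 0.0938 and 0.2496 TPM in A5, A7, A8 and A14. Rab6b measured 3.09, 3.13, 2.24 and 1.92 TPM across A25, A30, A31 and A29 (log2 change 1.36 with SE 0.21, limma adjusted p = 0.0245). Gm5905, a predicted gene, was listed at 0 in A5 and A14 and at no more than 0.284 TPM in A7 and A8, against 4.87 TPM in A29 and 8.43 to 10.3 TPM in the other knockout hearts. Values of predicted genes and pseudogenes depend on how reads were shared between similar copies.

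**Figure D1:**
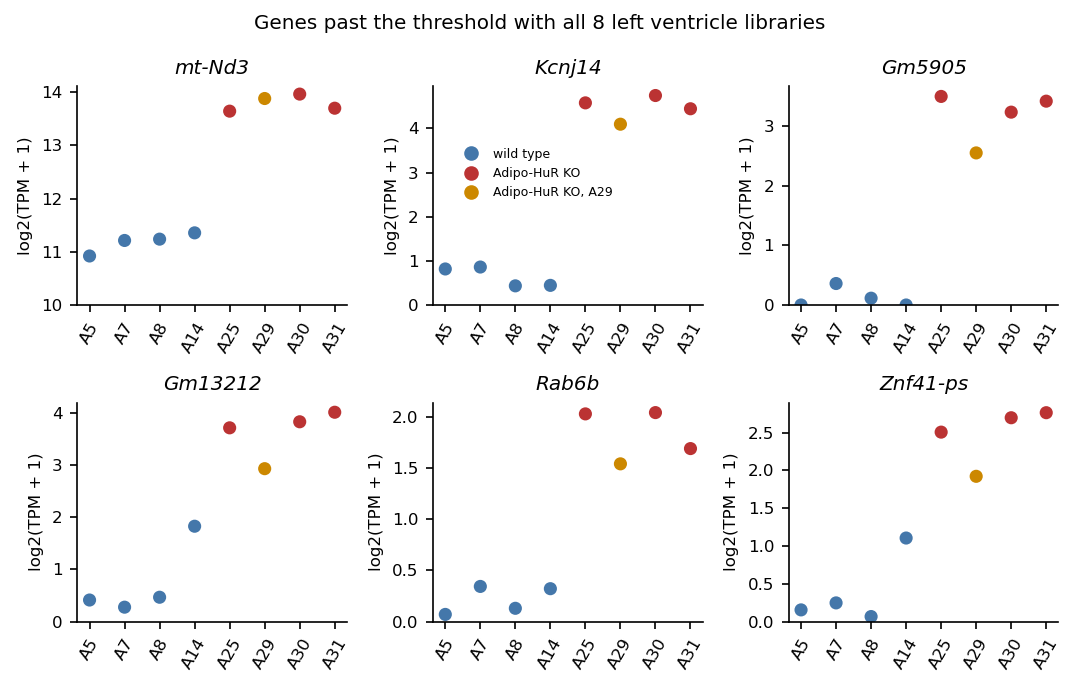
Each point is 1 left ventricle library, the vertical axis is log2(TPM + 1) and the panels are the 6 genes past the threshold with all 8 libraries. The mt-Nd3 axis starts at 10. The knockout hearts, A29 in orange included, lie above every wild-type heart in each panel, while the wild-type heart A14 lies above the other 3 wild-type hearts for Gm13212 and Znf41-ps.

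Several of the genes in which A29 matched its label are neighbours. By their order in RefSeq (GRCm38.p6), Gm13212, Znf41-ps, Zfp982 and Fbxo44 lie in 1 stretch of chromosome 4, which holds 23 tested genes from Gm13212 to Fbxo44. The stretch was drawn after its values were seen, and its end genes were taken because their groups did not overlap, so the count that follows is a description. Groups did not overlap for 8 of these 23, the end genes included, all higher in knockout hearts. Among all tested genes the shares without overlap were 3.71% higher and 0.634% lower. The others of the 8, named after their values were seen, were the zinc finger genes Zfp984, Zfp991 and Zfp979 and the retroviral restriction gene Fv1. A29 matched its label less closely for Zfp984, Zfp991 and Zfp979, at 1.95, 2.1 and 2.15 TPM. There it lay above every wild-type heart but nearer to their mean than to that of the other knockout hearts. Zfp982, a zinc finger gene, stood at 0.301, 0.448, 0.299 and 4.64 TPM in A5, A7, A8 and A14. Zfp982 was at 9.28, 8.02, 8.26 and 8.15 TPM across A25, A30, A31 and A29. Fbxo44, a substrate adaptor of a ubiquitin ligase, stood at 0.373, 0.619, 0.882 and 5.7003 TPM in A5, A7, A8 and A14. Fbxo44 measured 8.99, 9.56, 7.504 and 10.6 TPM across A25, A30, A31 and A29. In the wild-type heart A14 both were far above the other wild-type hearts, and 5 of the 23 genes were at least 2 times higher in A14 than in any other wild-type heart. Neither gene passed with all 8 libraries (limma adjusted p = 0.142 for both). Nppb and Nppa lie in the same stretch, and there A29 was at 54.5 and 52.7 TPM, with or below the wild-type hearts. What sets these neighbours apart was not tested.

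**Figure D2:**
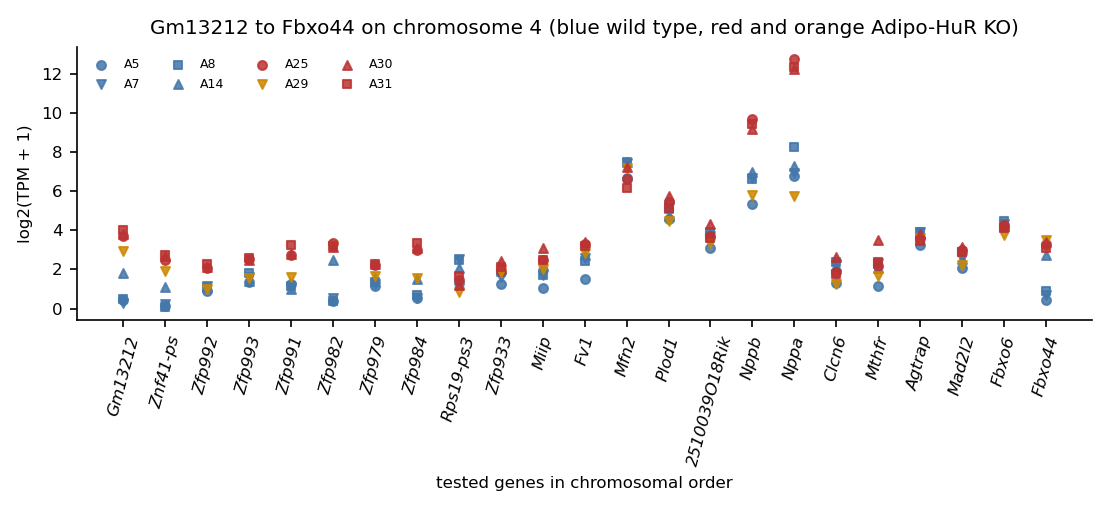
The horizontal axis is the 23 tested genes from Gm13212 to Fbxo44 in chromosomal order, the vertical axis is log2(TPM + 1) and each symbol is 1 library. For Zfp982 and Fbxo44 the knockout hearts, A29 included, and to a smaller degree A14 lie above the other wild-type hearts, while for Nppa and Nppb A29 lies with or below wild type.

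For most genes that differed, A29 instead lay with the wild-type hearts. The first principal component held 67.0% of the variance of the tested genes, with A25, A30 and A31 at 49.2, 67.1 and 55.9 and A29 at -45.0, among the wild-type hearts at -59.6 to -16. Without A29, 4203 of 12081 genes (34.8%) were higher and 502 (4.16%) lower in knockout hearts. Of these 4705 genes, A29 was nearer to the wild-type mean for 4592 (97.6%), within the wild-type range for 3666, and within or past the range of the other knockout hearts for 76. A29 was set apart here for not showing these differences, so results without it are no independent test of the label and describe A25, A30 and A31. With all 8 libraries no gene named below passed except mt-Nd3, Kcnj14 and Gm13212, the others having limma adjusted p = 0.142 or above. "Rose" and "fell" therefore refer from here on to the fit without A29, and A29 is given apart.

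The split between higher and lower calls depended on the scaling. Mitochondrially encoded transcripts took 60.6, 53.0, 51.9 and 53.2% of the TPM of A5, A7, A8 and A14, 46.2, 43.4 and 48.9% of A25, A30 and A31, and 55.7% of A29 (exact permutation p = 0.114 with all 8). With median-of-ratios scaling, 2340 of 11987 genes (19.5%) were higher and 2499 (20.8%) lower without A29. Genes called in the same direction under both scalings numbered 2837, of which 2340 were higher and 497 lower. Counts for gene lists are given under both scalings for this reason. They are to be read beside these shares of all tested genes: 34.8% higher and 4.16% lower as deposited, and 19.5% higher and 20.8% lower with median-of-ratios scaling.

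Long transcripts were lower in some libraries of both groups. Relative to the wild-type mean, the median deviation of the longest of 5 equal gene groups minus that of the shortest was -0.58 in A25, -0.50 in A31, -0.29 in A29 and -0.17 in A5, on the log2 scale, against -0.03 in A30 and 0.01 to 0.11 in A7, A8 and A14. Lengths were found for 95.6% of tested genes. After centring each library within 20 bins of transcript length, 2621 genes (22.7%) were higher and 2598 (22.5%) lower without A29. Genes with very long transcripts, such as Ttn, Ryr2 and Cacna1c, are given below beside this measure.

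**Figure D3:**
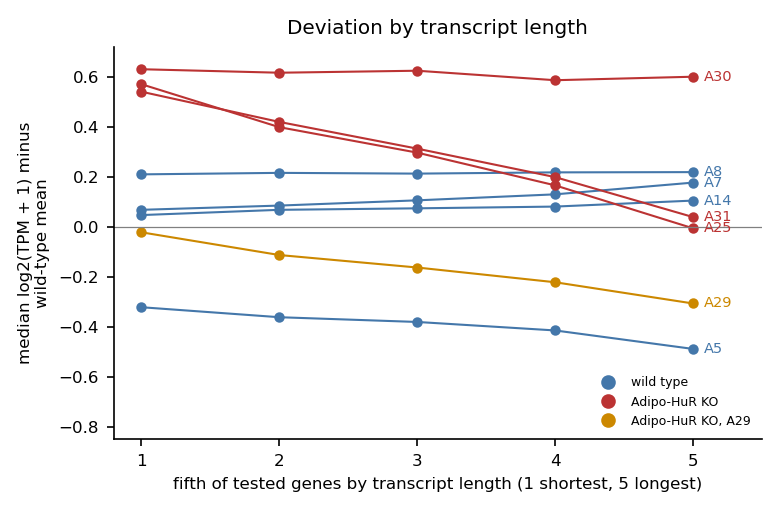
The horizontal axis is 5 equal groups of tested genes from the shortest to the longest transcripts, and the vertical axis is the median of log2(TPM + 1) minus the wild-type mean in each library. A25 and A31 fall from 0.57 and 0.54 in the shortest to -0.01 and 0.04 in the longest group, A30 stays near 0.6, and A29 and A5 lie below 0.

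Genes of the extracellular matrix were among the largest differences. Fibrillar collagens give the matrix its tensile strength, and of 6 tested, 5 rose and 0 fell (5 and 0 with median-of-ratios scaling), with a median log2 fold change of 1.70 with all 8 libraries and 2.46 without A29 (all tested genes are at 0). Col3a1 (type III collagen) stood at 13.7, 41.3, 39.7 and 39.2 TPM in A5, A7, A8 and A14. Col3a1 was at 344, 1226, 516 and 20.6 TPM across A25, A30, A31 and A29 (log2 change 3.86 with SE 0.47, limma adjusted p = 0.00014). Col1a1, a chain of the stiffer type I collagen, stood at 2.15, 10.1, 8.06 and 10.03 TPM in hearts A5, A7, A8 and A14. Col1a1 measured 21.1, 207, 30.9 and 3.897 TPM across A25, A30, A31 and A29 (log2 change 2.39 with SE 0.72, limma adjusted p = 0.0134). A30 was above A25 and A31 for both, and among all 8 hearts only A5 was lower than A29. Col5a2 (type V collagen) was more even, at 2.501, 4.55, 4.69 and 3.96 TPM in hearts A5, A7, A8 and A14. Col5a2 was at 44.5, 91.04, 62.7 and 2.94 TPM across A25, A30, A31 and A29. All collagen genes together took 0.0296 to 0.0679% of the nuclear-encoded TPM in wild-type hearts, 0.155, 0.534 and 0.221% in A25, A30 and A31, and 0.0315% in A29.

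Of 14 other collagens, 10 rose and 0 fell (9 and 0 with median-of-ratios scaling). Col8a1 and Col12a1, a short-chain and a fibril-associated collagen, rose without overlap, Col8a1 standing between 3.44 and 6.005 TPM in the wild-type group, with 65.1, 108 and 86.9 TPM for A25, A30 and A31 and 5.16 TPM for A29. Col12a1 stood between 0.0788 and 0.303 TPM in the wild-type group, with 6.09, 8.55 and 5.09 TPM for A25, A30 and A31 and 0.0701 TPM for A29. Col4a1, a chain of basement membrane collagen, did not pass and stood between 33.2 and 90.2 TPM in the wild-type group, with 75.6, 369 and 95.7 TPM for A25, A30 and A31 and 35.1 TPM for A29 (limma adjusted p = 0.0922).

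Most enzymes that process and crosslink collagen rose: of 22, 20 rose and 0 fell (18 and 0 with median-of-ratios scaling). Lox, the lysyl oxidase that starts collagen crosslinks, stood at 0.544, 1.24, 0.543 and 0.478 TPM in A5, A7, A8 and A14. Lox measured 24.6, 51.8, 40.7 and 0.477 TPM across A25, A30, A31 and A29 (log2 change 4.13 with SE 0.28, limma adjusted p = 7.6e-06). Its relatives Loxl2 and Loxl1 rose as well (log2 change 2.30 with SE 0.28, limma adjusted p = 0.0001 for Loxl2, and 0.00073 for Loxl1), as did the collagen chaperone Serpinh1 (log2 change 1.39 with SE 0.22, limma adjusted p = 0.00029).

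Matricellular proteins, which signal from the matrix without building it, were counted together with other matrix glycoproteins. This joint list had a median of 1.79 with all 8 libraries and 2.53 without A29. Of 25 tested, 21 rose and 0 fell (19 and 0 with median-of-ratios scaling). Cilp, a cartilage matrix protein also made by cardiac fibroblasts, stood at 1.11, 1.43, 1.91 and 1.69 TPM in A5, A7, A8 and A14. Cilp was at 78.9, 131, 106 and 1.09 TPM across A25, A30, A31 and A29 (log2 change 4.98 with SE 0.22, limma adjusted p = 1.5e-06). Thbs4, a thrombospondin, stood at 0.873, 0.605, 1.24 and 1.04 TPM in hearts A5, A7, A8 and A14. Thbs4 measured 45.7, 88.6, 53.8 and 0.871 TPM across A25, A30, A31 and A29 (log2 change 4.603 with SE 0.25, limma adjusted p = 3.2e-06). Spp1 (osteopontin) was at no more than 0.232 TPM in any wild-type heart and at 19.1, 22.96 and 31.7 TPM for A25, A30 and A31, and Tnc (tenascin C) at no more than 0.229 TPM and at 4.13, 25.3 and 8.23 TPM. In A29 both were below 0.1 TPM. For each of these the 3 knockout hearts lay above all wild-type hearts by a wide margin.

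Small leucine-rich proteoglycans, which space collagen fibrils, showed 8 of 9 members higher and 0 lower under both scalings. Aspn (asporin) stood between 10.4 and 13.7 TPM in the wild-type group, with 92.97, 98.2 and 133 TPM for A25, A30 and A31 and 11.9 TPM for A29. Lum (lumican) stood between 16.1 and 18.9 TPM in the wild-type group, with 85.3, 114 and 145 TPM for A25, A30 and A31 and 16.96 TPM for A29. Of 17 matrix proteases and their inhibitors, 13 rose and 0 fell (12 and 2 with median-of-ratios scaling). Timp1, an inhibitor that blocks matrix metalloproteinases, stood at 0.736, 1.7996, 2.71 and 0.846 TPM in A5, A7, A8 and A14. Timp1 was at 117, 173, 206 and 0.9002 TPM across A25, A30, A31 and A29 (log2 change 5.69 with SE 0.30, limma adjusted p = 3.2e-06).

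The TGF-beta and activin family, which drives fibroblast activation, had a median of 0.03 with all 8 libraries and 0.17 without A29, and of 24 members 9 rose and 0 fell (7 and 2 of 23 tested with median-of-ratios scaling). The higher calls stand beside 34.8% and 19.5% of all tested genes. Among the ligands, Tgfb3 stood between 2.84 and 4.54 TPM in the wild-type group, with 17.3, 24.5 and 19.6 TPM for A25, A30 and A31 and 3.07 TPM for A29. Tgfb2 stood between 0.838 and 2.85 TPM in the wild-type group, with 7.79, 15.2 and 10.04 TPM for A25, A30 and A31 and 1.36 TPM for A29. Inhba, the activin A subunit, stood between 0.191 and 0.302 TPM in the wild-type group, with 2.43, 3.39 and 5.19 TPM for A25, A30 and A31 and 0.444 TPM for A29. Ltbp2, a matrix protein of the latent TGF-beta binding family, showed the largest of these changes (log2 change 3.81 with SE 0.34, limma adjusted p = 3.4e-05), from 0.1104, 0.604, 0.836 and 0.527 TPM in the wild-type hearts to 19.9, 49.95 and 18.3 TPM for A25, A30 and A31, with 0.316 TPM in A29.

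Most fibroblast genes rose. Of 15 markers, 12 rose and 0 fell (11 and 0 with median-of-ratios scaling). Cthrc1, a secreted protein of activated fibroblasts, did not exceed 0.217 TPM in the wild-type group and was at 23.5, 26.4 and 33.6 TPM for A25, A30 and A31, with 0.019 TPM in A29 (log2 change 4.28 with SE 0.20, limma adjusted p = 1.5e-06). Meox1, a transcription factor of the activated state, stood between 3.27 and 5.83 TPM in the wild-type group, with 41.01, 53.5 and 50.5 TPM for A25, A30 and A31 and 3.63 TPM for A29 (log2 change 2.78 with SE 0.21, limma adjusted p = 1.1e-05). The lineage genes Tcf21 and Pdgfra, present in resting fibroblasts, also rose (log2 change 1.29 with SE 0.23, limma adjusted p = 0.00041 for Tcf21, and 0.53 with SE 0.23, 0.0109 for Pdgfra). Whether the activation and the lineage genes differed in their change was not tested.

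**Figure D4:**
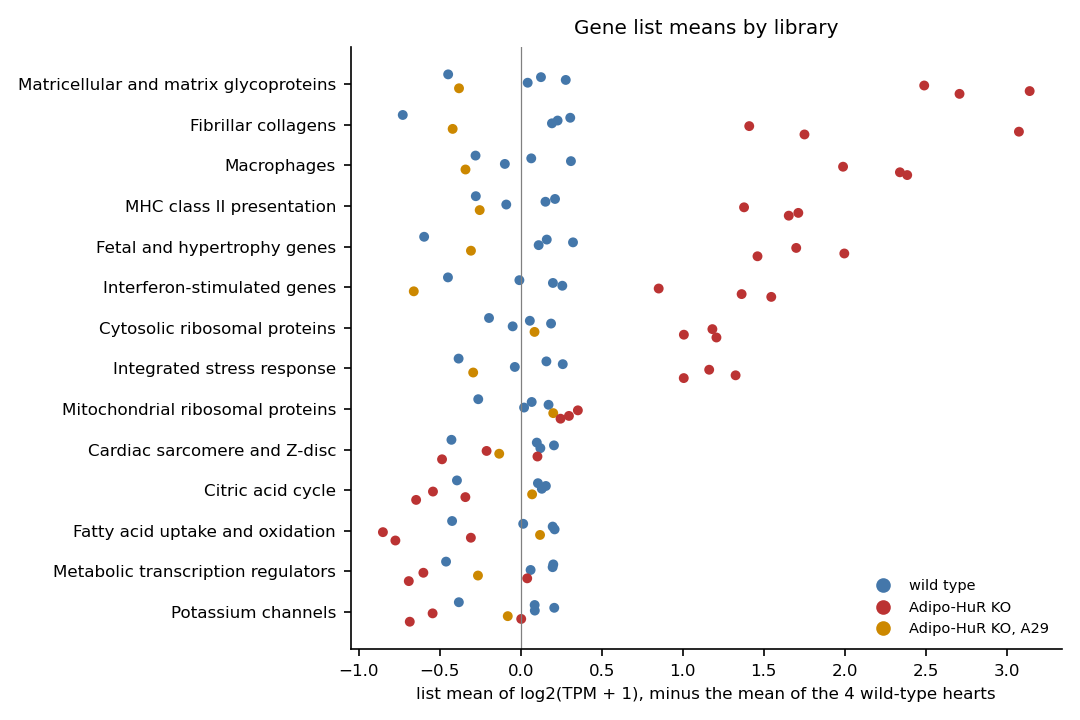
Each row is 1 gene list, each point 1 library, and the horizontal axis is the mean log2(TPM + 1) of the list's members minus the mean of the 4 wild-type hearts, with no correction for the shift of all genes. A25, A30 and A31 lie right of all other libraries for the matrix, macrophage, fetal gene and cytosolic ribosomal lists, and A29 lies with the wild-type hearts there. For mitochondrial ribosomal proteins A29 lies right of every wild-type heart and just left of A31. For potassium channels and metabolic regulators A30 lies near wild type while A25, A31 and the wild-type heart A5 lie to the left.

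Genes of the fetal and hypertrophic program rose in A25, A30 and A31. Of 17 tested, 12 rose and 1 fell (12 and 2 with median-of-ratios scaling), with a median of 1.24 with all 8 libraries and 1.70 without A29. Xirp2, an actin-binding protein of the intercalated disc, stood at 66.2, 71.3, 72.03 and 63.3 TPM in A5, A7, A8 and A14. Xirp2 measured 296, 272, 276 and 63.8 TPM across A25, A30, A31 and A29 (log2 change 1.64 with SE 0.12, limma adjusted p = 7.1e-06). Rcan1, an inhibitor of calcineurin that calcineurin signalling itself induces, stood at 22.6, 32.7, 26.6 and 23.3 TPM in hearts A5, A7, A8 and A14. Rcan1 was at 156, 161, 124 and 22.4 TPM across A25, A30, A31 and A29 (log2 change 2.06 with SE 0.17, limma adjusted p = 1.6e-05). Fhl1, a LIM protein of the sarcomere, stood between 27.7 and 59.6 TPM in the wild-type group, with 182, 216 and 192 TPM for A25, A30 and A31 and 45.8 TPM for A29 (log2 change 1.70 with SE 0.24, limma adjusted p = 0.00018). None of the 3 overlapped between the wild-type hearts and A25, A30 and A31, and A29 lay inside the wild-type range for Xirp2 and Fhl1 and just below it for Rcan1. Corin, the protease that activates atrial natriuretic peptide, went the other way and fell from 33.4, 49.3, 58.6 and 54.9 TPM to 20.01, 35.05 and 21.4 TPM, with 37.7 TPM in A29 (log2 change -1.32 with SE 0.25, limma adjusted p = 0.0151). Its groups overlapped, A30 lying above A5.

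The share of the slow, fetal isoform among the myosin heavy chains was 0.615, 1.40, 1.49 and 0.802% in A5, A7, A8 and A14, 13.5, 8.95 and 8.55% in A25, A30 and A31, and 1.01% in A29 (Myh7 of Myh6 plus Myh7). The means were 1.08 ± 0.434% (SD, n = 4) in wild-type and 7.99 ± 5.16% (n = 4) in knockout hearts, and the exact permutation p was 0.0857, where 0.0286 is the smallest possible. Acta1, the fetal actin, took 1.24 to 3.98% of Acta1 plus Actc1 in wild-type hearts, 25.8, 26.8 and 26.7% in A25, A30 and A31, and 3.88% in A29. A different pattern held for mt-Nd3, whose share of the mitochondrially encoded complex I subunits was 0.944 to 1.45% in wild-type hearts, 9.27, 10.9 and 9.05% in A25, A30 and A31, and 8.38% in A29 (means 1.302 ± 0.241% (SD, n = 4) in wild-type and 9.41 ± 1.08% (n = 4) in knockout hearts, exact permutation p = 0.0286, the smallest possible). This share rests on the same mt-Nd3 values that passed with all 8 libraries, so its p is no independent test.

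**Figure D5:**
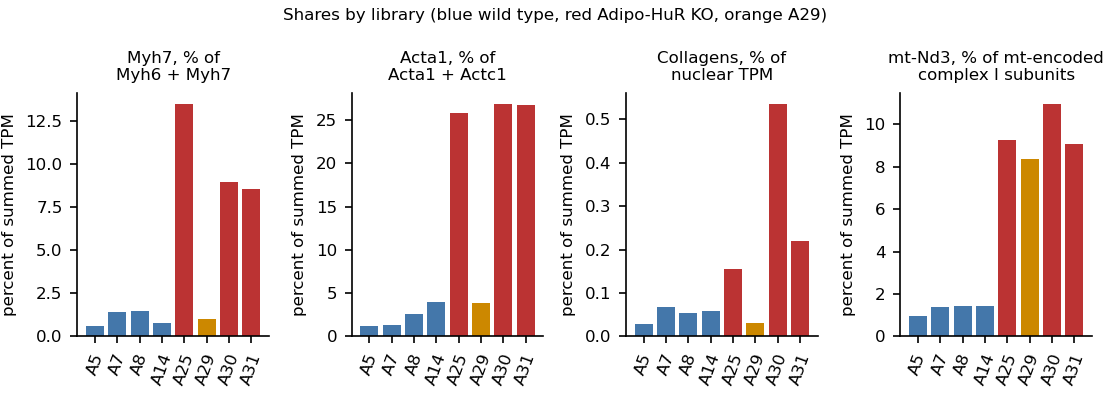
Bars give, for each library, the percent of summed TPM taken by Myh7 among the heavy chains, by Acta1 among the 2 actins, by collagens in nuclear-encoded TPM and by mt-Nd3 among mitochondrially encoded complex I subunits. A29 (orange) is at 1.01, 3.88 and 0.0315% with the wild-type hearts in the first 3 panels and at 8.38% with the knockout hearts in the last.

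The count of sarcomere genes that fell depended on the scaling. Of 24, 5 rose and 5 fell (2 and 15 with median-of-ratios scaling), and 2 rose and 18 fell after centring by transcript length. Myh6 stood at 2170.4, 4099, 4769 and 4104 TPM in A5, A7, A8 and A14. Myh6 measured 1115, 2933, 1012 and 2399 TPM across A25, A30, A31 and A29 (log2 change -1.67 with SE 0.38, limma adjusted p = 0.0226). The 8 values overlapped, since A30 lay above A5. Tnni3, a short transcript, did not overlap without A29: it stood between 2878 and 3421 TPM in the wild-type group, with 2022, 1787 and 1617 TPM for A25, A30 and A31 and 3504 TPM for A29 (log2 change -1.18 with SE 0.12, limma adjusted p = 0.00077). Myl2 stood between 7536 and 8278 TPM in the wild-type group, with 6299.8, 5158 and 4449 TPM for A25, A30 and A31 and 9066 TPM for A29 (log2 change -0.98 with SE 0.13, limma adjusted p = 0.00559). Ttn, the giant spring protein titin, stood at 37.1, 93.999, 92.95 and 89.8 TPM in hearts A5, A7, A8 and A14. Ttn was at 21.7, 87.5, 23.1 and 40.1 TPM across A25, A30, A31 and A29 and did not pass (limma adjusted p = 0.123). Its fold change without A29 was -1.53 with median-of-ratios scaling and -1.12 after centring by length, and it passed in both (limma adjusted p = 0.00721 and 0.0115).

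Genes of calcium cycling, which times contraction, were lower mainly under the second scaling: of 17, 3 rose and 3 fell (1 and 10 with median-of-ratios scaling). Atp2a2, the pump that returns calcium to the sarcoplasmic reticulum, stood at 2523, 3400.5, 4045 and 3477 TPM in A5, A7, A8 and A14. Atp2a2 measured 1382, 2174, 1242 and 2750.2 TPM across A25, A30, A31 and A29 (log2 change -1.48 with SE 0.21, limma adjusted p = 0.00324), and A25, A30 and A31 lay below every wild-type heart. Ryr2, the release channel, and Cacna1c, the L-type channel pore, did not pass (limma adjusted p = 0.0626 and 0.0632). Ryr2 stood at 70.3, 158, 152 and 166 TPM in hearts A5, A7, A8 and A14. Ryr2 was at 31.7, 133, 36.5 and 88.1 TPM across A25, A30, A31 and A29, so that A30 lay above A5. Both have long transcripts, and after centring by length their fold changes without A29 were -1.34 and -1.38 (limma adjusted p = 0.0045 and 0.0038). The calcium store protein gene Casq2 stood at 284 to 456 TPM in wild-type and 468 to 542 TPM in knockout hearts, rising without A29 (limma adjusted p = 0.0403) but at -0.04 with median-of-ratios scaling (limma adjusted p = 0.921).

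Potassium channels, which repolarize the myocyte, fell more often than they rose. Of 21, 2 rose and 11 fell (2 and 17 with median-of-ratios scaling), with a median of -1.03 with all 8 libraries and -1.34 without A29. Kcnd2, a pore subunit of the fast transient outward current, stood at 4.43, 5.71, 6.65 and 6.18 TPM in A5, A7, A8 and A14. Kcnd2 measured 0.711, 1.97, 0.815 and 3.62 TPM across A25, A30, A31 and A29 (log2 change -2.06 with SE 0.24, limma adjusted p = 0.00061). Kcnj3, the pore of the acetylcholine-gated current, stood at 18.6, 22.95, 27.1 and 22.02 TPM in hearts A5, A7, A8 and A14. Kcnj3 was at 2.76, 4.45, 2.48 and 17.02 TPM across A25, A30, A31 and A29 (log2 change -2.89 with SE 0.22, limma adjusted p = 4.6e-05). Kcnj11, the pore of the ATP-sensitive channel, stood between 34.3 and 62.4 TPM in the wild-type group, with 19.4, 34.6 and 16.9 TPM for A25, A30 and A31 and 28.9 TPM for A29. Kcnv2, a modifying subunit, stood between 1.52 and 3.86 TPM in the wild-type group, with 0.142, 0.432 and 0.221 TPM for A25, A30 and A31 and 1.75 TPM for A29. For Kcnd2 and Kcnj3 A29 was the lowest heart outside A25, A30 and A31. The 2 members that rose were Kcnj14 and Kcne1, the auxiliary subunit of the slow delayed rectifier, which stood at 1.203, 0.299, 1.15 and 0.732 TPM in A5, A7, A8 and A14. Kcne1 measured 25.6, 23.7, 15.99 and 1.53 TPM across A25, A30, A31 and A29 (log2 change 3.24 with SE 0.26, limma adjusted p = 1.6e-05).

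Of 12 sodium channels, pacemaker channels and connexins, 2 rose and 5 fell (2 and 6 with median-of-ratios scaling). Hcn2, a pacemaker channel, stood between 2.31 and 6.57 TPM in the wild-type group, with 0.774, 1.82 and 0.524 TPM for A25, A30 and A31 and 1.89 TPM for A29 (log2 change -1.89 with SE 0.33, limma adjusted p = 0.00603). Gja5, a connexin of the conduction system, stood between 1.46 and 2.19 TPM in the wild-type group, with 4.02, 3.84 and 4.39 TPM for A25, A30 and A31 and 1.34 TPM for A29 (log2 change 0.39 with SE 0.18, limma adjusted p = 0.00824). Of 16 adrenergic and muscarinic genes, 4 rose and 3 fell (2 and 9 with median-of-ratios scaling). Adra1a, the alpha-1A receptor, fell (log2 change -2.74 with SE 0.32, limma adjusted p = 0.00044): it stood at 4.17, 9.71, 10.97 and 10.6 TPM in A5, A7, A8 and A14. Adra1a was at 0.591, 1.43, 0.597 and 3.61 TPM across A25, A30, A31 and A29. Grk5, a kinase that desensitizes such receptors, rose (log2 change 1.41 with SE 0.21, limma adjusted p = 0.00019) and stood between 6.82 and 12.5 TPM in the wild-type group, with 32.3, 39.6 and 33.7 TPM for A25, A30 and A31 and 8.57 TPM for A29. In the renin-angiotensin and endothelin list, of 11 tested, 5 rose and 2 fell (4 and 3 with median-of-ratios scaling). The angiotensin receptor gene Agtr1a was among those that fell, from 9.11, 13.1, 14.1 and 17.3 TPM in wild-type hearts to 4.69, 8.25 and 4.76 TPM, with 11.8 TPM in A29 (log2 change -1.46 with SE 0.26, limma adjusted p = 0.01).

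More regulators of energy metabolism fell than rose. Of 18, 2 rose and 7 fell (1 and 13 with median-of-ratios scaling), with a median of -0.77 with all 8 libraries and -0.99 without A29. Perm1, a muscle regulator of oxidative genes, stood at 58.5, 97.5, 108 and 97.5 TPM in A5, A7, A8 and A14. Perm1 measured 21.6, 30.7, 15.8 and 74.7 TPM across A25, A30, A31 and A29 (log2 change -2.35 with SE 0.26, limma adjusted p = 0.0004). Klf15, a glucocorticoid-responsive factor that restrains hypertrophy, stood at 18.7, 31.2, 24.3 and 26.04 TPM in hearts A5, A7, A8 and A14. Klf15 was at 11.1, 10.3, 5.54 and 13.5 TPM across A25, A30, A31 and A29 (log2 change -1.80 with SE 0.26, limma adjusted p = 0.00217). Here A29, at 13.5 TPM, lay below every wild-type heart and above the other knockout hearts. Ppargc1a, the coactivator of mitochondrial biogenesis, stood between 18.6 and 47.9 TPM in the wild-type group, with 10.4, 17.3 and 9.92 TPM for A25, A30 and A31 and 21.3 TPM for A29 (log2 change -1.57 with SE 0.32, limma adjusted p = 0.0157). Ppara, the fatty acid sensor, stood between 11.1 and 21.9 TPM in the wild-type group, with 6.73, 12.9 and 4.69 TPM for A25, A30 and A31 and 11.4 TPM for A29 (log2 change -1.47 with SE 0.33, limma adjusted p = 0.0257).

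Fatty acid uptake and oxidation, the main fuel route of the heart, held 30 tested genes, of which 1 rose and 20 fell (0 and 26 with median-of-ratios scaling), with a median of -0.71 with all 8 libraries and -1.11 without A29. Acadm, the medium-chain acyl-CoA dehydrogenase, stood at 456, 674, 687 and 690.3 TPM in A5, A7, A8 and A14. Acadm measured 279.5, 352, 281 and 655 TPM across A25, A30, A31 and A29 (log2 change -1.42 with SE 0.17, limma adjusted p = 0.00146). Hadha, a subunit of the trifunctional protein, stood between 401 and 516 TPM in the wild-type group, with 216, 338 and 252 TPM for A25, A30 and A31 and 496 TPM for A29 (log2 change -1.24 with SE 0.17, limma adjusted p = 0.00359). Acsl1, which activates long-chain fatty acids, stood between 197 and 283 TPM in the wild-type group, with 96.2, 177 and 105 TPM for A25, A30 and A31 and 251 TPM for A29 (log2 change -1.43 with SE 0.22, limma adjusted p = 0.00518). Each was lower in A25, A30 and A31 than in any wild-type heart, and A29 was within the wild-type range. Slc27a1, a transporter, overlapped: A30 was at 41.01 TPM and A5 at 23.97 TPM (limma adjusted p = 0.0458).

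Among 30 genes of glucose use, 9 rose and 9 fell (4 and 13 with median-of-ratios scaling). Slc2a4, the insulin-responsive glucose transporter, fell (log2 change -1.60 with SE 0.23, limma adjusted p = 0.00278) and stood between 131 and 221 TPM in the wild-type group, with 76.9, 106 and 59.5 TPM for A25, A30 and A31 and 153 TPM for A29. Pfkp, the platelet-type phosphofructokinase, rose (log2 change 1.77 with SE 0.26, limma adjusted p = 0.00023) and stood between 7.95 and 17.3 TPM in the wild-type group, with 47.8, 71.3 and 51.7 TPM for A25, A30 and A31 and 10.2 TPM for A29. Pfkfb1, which makes the activator of phosphofructokinase, stood between 5.198 and 14.9 TPM in the wild-type group, with 0.546, 1.12 and 0.9997 TPM for A25, A30 and A31 and 10.6 TPM for A29 (log2 change -2.92 with SE 0.31, limma adjusted p = 0.00026). Of 19 citric acid cycle genes, 0 rose, 9 fell and all 19 fell with median-of-ratios scaling. Cs, citrate synthase, stood between 248 and 471 TPM in the wild-type group, with 191, 309 and 162 TPM for A25, A30 and A31 and 343 TPM for A29 (log2 change -1.25 with SE 0.27, limma adjusted p = 0.029). Ogdhl, a relative of the oxoglutarate dehydrogenase subunit Ogdh, showed one of the largest falls of all genes (log2 change -4.30 with SE 0.41, limma adjusted p = 0.00011): it stood at 18.3, 39.95, 48.4 and 60.4 TPM in A5, A7, A8 and A14. Ogdhl was at 1.01, 3.43, 1.003 and 22.6 TPM across A25, A30, A31 and A29.

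For nuclear genes of the respiratory chain the count rested on the scaling. Of 36 nuclear complex I subunits, 1 rose and 3 fell (0 and 16 with median-of-ratios scaling), and 33 fell after centring by length. For 38 subunits of complexes III to V 3 rose and 4 fell (0 and 17 with median-of-ratios scaling), and 33 fell after centring by length, where 22.5% of all genes fell. Ndufs1, the largest complex I subunit, stood between 178 and 293 TPM in the wild-type group, with 155, 189 and 167 TPM for A25, A30 and A31 and 265 TPM for A29 (log2 change -0.97 with SE 0.19, limma adjusted p = 0.0335). Atp5a1, the ATP synthase alpha subunit, stood between 1275 and 1702 TPM in the wild-type group, with 1008, 1075 and 880.3 TPM for A25, A30 and A31 and 1649.8 TPM for A29 (log2 change -1.02 with SE 0.13, limma adjusted p = 0.00487). Of the 13 mitochondrially encoded subunits, 1 rose, mt-Nd3, and 8 fell (1 and 3 with median-of-ratios scaling). Its neighbour in function mt-Nd5 stood at 15312, 12838, 13069.5 and 15598 TPM in A5, A7, A8 and A14. mt-Nd5 measured 8179.7, 10795, 8830.5 and 12611 TPM across A25, A30, A31 and A29 (log2 change -1.01 with SE 0.13, limma adjusted p = 0.00499), opposite in direction to mt-Nd3 and without overlap of the groups.

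Breakdown of branched-chain amino acids fell in 9 of 19 genes and rose in 1 (16 and 1 with median-of-ratios scaling). Bckdha, of the rate-limiting dehydrogenase complex, stood between 76.4 and 137 TPM in the wild-type group, with 38.2, 52.1 and 34.6 TPM for A25, A30 and A31 and 92.7 TPM for A29 (log2 change -1.78 with SE 0.22, limma adjusted p = 0.00113). Ppm1k, the phosphatase that activates that complex, stood between 15.001 and 28.9 TPM in the wild-type group, with 5.59, 9.78 and 8.76 TPM for A25, A30 and A31 and 23.5 TPM for A29 (log2 change -1.79 with SE 0.26, limma adjusted p = 0.0025). For ketone use, Oxct1 stood at 313 to 447 TPM in wild-type and 449 to 483 TPM in knockout hearts and did not pass (limma adjusted p = 0.168). Of 12 creatine and adenylate genes, 3 rose and 1 fell (1 and 4 with median-of-ratios scaling), with Ckm, the muscle creatine kinase, at 1213, 1118, 1411 and 1360.4 TPM in wild-type hearts, 1089.9, 994 and 794 TPM for A25, A30 and A31 and 1593 TPM in A29 (log2 change -0.81 with SE 0.14, limma adjusted p = 0.0416). Of 18 mitochondrial carriers and dynamics genes, 3 rose and 9 fell (1 and 13 with median-of-ratios scaling). Pink1, a kinase of mitochondrial quality control, stood between 171 and 287 TPM in the wild-type group, with 107, 116 and 93.3 TPM for A25, A30 and A31 and 214 TPM for A29 (log2 change -1.51 with SE 0.18, limma adjusted p = 0.00121).

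Lipid synthesis genes were counted in 2 lists. Of 13 lipogenic genes, 0 rose and 1 fell (0 and 4 with median-of-ratios scaling), and of 17 in cholesterol synthesis, 5 rose and 1 fell (1 and 2 with median-of-ratios scaling). Srebf1 and Scd1 did not pass (limma adjusted p = 0.331 and 0.136).

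Ribosomal protein genes rose almost throughout. They have many near-identical pseudogene copies, so their values depend on how shared reads were counted. Of 83 cytosolic ribosomal protein genes, 82 rose and 1 fell (57 and 1 with median-of-ratios scaling), with a median of 0.67 with all 8 libraries and 0.83 without A29. Rpl3, at the peptidyl transferase centre, stood at 70.3, 77.02, 96.1 and 72.3 TPM in A5, A7, A8 and A14. Rpl3 was at 414, 360.0, 416 and 75.8 TPM across A25, A30, A31 and A29 (log2 change 1.93 with SE 0.15, limma adjusted p = 8.3e-06). The one member that fell, named after its values were seen, was its muscle paralog Rpl3l, which stood at 118, 150.1, 156 and 127 TPM in hearts A5, A7, A8 and A14. Rpl3l measured 43.1, 42.2, 32.9 and 161 TPM across A25, A30, A31 and A29 (log2 change -2.17 with SE 0.16, limma adjusted p = 5.5e-05). The 2 paralogs thus moved in opposite directions in A25, A30 and A31, and neither did in A29. For mitochondrial ribosomal protein genes the balance turned with the scaling: of 77, 20 rose and 1 fell (2 and 13 with median-of-ratios scaling). After centring by transcript length 2 rose and 36 fell, beside 22.7% and 22.5% of all genes. With all 8 libraries as deposited, groups did not overlap for 25 of the 77, all higher in knockout hearts, beside 3.71% of all tested genes. The same held for 17 of the 83 cytosolic genes. Of 46 proteasome subunits, 35 rose and 1 fell (6 and 3 with median-of-ratios scaling). The higher count lies above the 34.8% of all tested genes as deposited, and both median-of-ratios counts lie below their shares of 19.5 and 20.8%.

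Of 24 genes of the integrated stress response, through which ATF4 induces amino acid synthesis, 15 rose and 0 fell (13 and 2 with median-of-ratios scaling). Mthfd2, of mitochondrial folate metabolism, stood at 1.01, 1.58, 1.49 and 1.61 TPM in A5, A7, A8 and A14. Mthfd2 was at 17.7, 20.3, 18.2 and 0.839 TPM across A25, A30, A31 and A29 (log2 change 2.65 with SE 0.19, limma adjusted p = 8.1e-06). Asns, asparagine synthetase, stood at 0.948, 1.32, 1.14 and 0.761 TPM in hearts A5, A7, A8 and A14. Asns measured 10.6, 11.3, 13.1 and 0.535 TPM across A25, A30, A31 and A29 (log2 change 2.25 with SE 0.19, limma adjusted p = 1.6e-05). Phgdh, the first enzyme of serine synthesis, stood between 0.323 and 0.863 TPM in the wild-type group, with 6.73, 5.301 and 6.304 TPM for A25, A30 and A31 and 0.328 TPM for A29 (log2 change 1.78 with SE 0.19, limma adjusted p = 4.5e-05). Atf4 itself stood between 16.02 and 44.96 TPM in the wild-type group, with 105, 94.6 and 91.95 TPM for A25, A30 and A31 and 35.2 TPM for A29 (log2 change 1.17 with SE 0.31, limma adjusted p = 0.00359). The 3 enzymes were lowest or nearly so in A29. Of 19 genes of the unfolded protein response, 14 rose and 1 fell (10 and 2 with median-of-ratios scaling). The chaperone gene Hsp90b1 stood between 69.6 and 108 TPM in the wild-type group, with 257, 192 and 237 TPM for A25, A30 and A31 and 86.8 TPM for A29 (log2 change 0.95 with SE 0.18, limma adjusted p = 0.00039). Hspa5, the chaperone BiP, stood between 135 and 214 TPM in the wild-type group, with 423, 301 and 307 TPM for A25, A30 and A31 and 199.6 TPM for A29 (log2 change 0.50 with SE 0.19, limma adjusted p = 0.00539), and it did not pass with median-of-ratios scaling (limma adjusted p = 0.348).

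Promoters of these stress genes and of the interferon-stimulated genes described below hold known elements, and 5 are printed because their genes rose together. Each is the 250 bases before the start site from RefSeq (GRCm38.p6), 5′ to 3′ on the gene's strand, with matches in capitals. The searches, on both strands, were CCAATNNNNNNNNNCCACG (the endoplasmic reticulum stress element), TGATGNAA (the core of the ATF4 element) and TTTCNNTTTC (the core of the interferon element). They matched 0.113%, 3.45% and 2.98% of 32851 promoters of that length.
Hspa5, chr2:34771840-34772089 (+ strand): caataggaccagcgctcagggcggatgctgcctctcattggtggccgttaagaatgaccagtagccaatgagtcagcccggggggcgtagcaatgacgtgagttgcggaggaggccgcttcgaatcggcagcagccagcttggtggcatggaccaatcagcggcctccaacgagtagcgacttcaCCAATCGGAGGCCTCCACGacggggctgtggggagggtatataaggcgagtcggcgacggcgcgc
Hsp90b1, chr10:86705445-86705694 (- strand): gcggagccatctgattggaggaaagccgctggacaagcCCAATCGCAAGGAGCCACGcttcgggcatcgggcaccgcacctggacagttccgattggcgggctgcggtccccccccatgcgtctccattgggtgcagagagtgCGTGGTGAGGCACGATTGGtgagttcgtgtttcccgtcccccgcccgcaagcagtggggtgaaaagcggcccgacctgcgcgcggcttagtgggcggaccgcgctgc
Asns, chr6:7693210-7693459 (- strand): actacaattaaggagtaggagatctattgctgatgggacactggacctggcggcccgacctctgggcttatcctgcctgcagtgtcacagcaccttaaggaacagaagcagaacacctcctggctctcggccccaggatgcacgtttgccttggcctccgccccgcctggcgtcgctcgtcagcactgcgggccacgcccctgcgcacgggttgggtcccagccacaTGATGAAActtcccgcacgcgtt
Isg15, chr4:156200819-156201068 (- strand): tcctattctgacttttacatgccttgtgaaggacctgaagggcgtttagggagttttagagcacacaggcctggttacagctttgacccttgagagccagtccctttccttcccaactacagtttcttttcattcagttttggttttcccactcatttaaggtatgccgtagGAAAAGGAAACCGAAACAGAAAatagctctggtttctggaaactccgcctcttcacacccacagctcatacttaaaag
Ifit3, chr19:34583279-34583528 (+ strand): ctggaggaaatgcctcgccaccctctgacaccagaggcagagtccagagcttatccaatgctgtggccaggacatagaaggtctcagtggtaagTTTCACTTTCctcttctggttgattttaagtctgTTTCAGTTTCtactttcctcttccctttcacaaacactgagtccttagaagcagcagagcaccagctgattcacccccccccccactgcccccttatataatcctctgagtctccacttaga
The first element was matched in 6 of 16 tested unfolded protein response members with an entry, the second in 8 of 21 of the integrated stress response and the third in 9 of 17 interferon-stimulated genes. Hsp90b1 and Ifit3 have 2 matches each, and Isg15 has 3 that overlap one another. A match is a description of letters and says nothing of binding in these hearts.

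Of 17 heat shock proteins, 11 rose and 0 fell (4 and 4 with median-of-ratios scaling). The median-of-ratios counts are near the 19.5 and 20.8% of all tested genes, so under that scaling the list shows no direction of its own. Hsp90aa1, the inducible form of HSP90, stood between 45.7 and 102 TPM in the wild-type group, with 371, 264 and 301 TPM for A25, A30 and A31 and 58.7 TPM for A29 (log2 change 1.76 with SE 0.26, limma adjusted p = 0.00026). Hspb1, a small heat shock protein, stood between 125 and 235 TPM in the wild-type group, with 747, 404 and 415 TPM for A25, A30 and A31 and 139 TPM for A29 (log2 change 1.14 with SE 0.27, limma adjusted p = 0.00192). Of 28 redox genes, 13 rose and 2 fell (9 and 7 with median-of-ratios scaling). Gpx3, the secreted glutathione peroxidase, stood at 62.8, 94.1, 122 and 93.4 TPM in A5, A7, A8 and A14. Gpx3 was at 541, 584, 502 and 63.4 TPM across A25, A30, A31 and A29 (log2 change 2.17 with SE 0.20, limma adjusted p = 2.8e-05). Nox4, an oxidase that makes hydrogen peroxide, stood between 0.238 and 0.934 TPM in the wild-type group, with 6.51, 4.33 and 6.77 TPM for A25, A30 and A31 and 0.468 TPM for A29 (log2 change 1.60 with SE 0.23, limma adjusted p = 0.00018). In the atrophy and autophagy list, of 11 tested, 3 rose and 2 fell (2 and 4 with median-of-ratios scaling). Fbxo32 (atrogin-1), a ubiquitin ligase adaptor of muscle atrophy, fell without overlap of the 2 groups of 4: it stood at 18.8, 25.9, 23.3 and 32.8 TPM in A5, A7, A8 and A14. Fbxo32 measured 7.86, 15.2, 7.64 and 11.2 TPM across A25, A30, A31 and A29 (log2 change -1.65 with SE 0.27, limma adjusted p = 0.00503). The lysosomal protease gene Ctsl rose (log2 change 1.14 with SE 0.23, limma adjusted p = 0.00084).

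Genes of macrophages were higher almost throughout their list. Of 24, 23 rose and 0 fell (22 and 0 with median-of-ratios scaling), with a median of 1.55 with all 8 libraries and 2.13 without A29. The summed TPM of the list was 219 to 364 in wild-type hearts, 1744, 1852 and 2186 in A25, A30 and A31, and 217 in A29. Adgre1 (F4/80), a defining macrophage gene, stood at 2.72, 3.67, 3.43 and 2.54 TPM in A5, A7, A8 and A14. Adgre1 was at 18.8, 25.5, 28.02 and 2.24 TPM across A25, A30, A31 and A29 (log2 change 2.22 with SE 0.21, limma adjusted p = 2.9e-05). Lgals3, a lectin of activated macrophages, stood at 2.57, 3.54, 5.63 and 2.94 TPM in hearts A5, A7, A8 and A14. Lgals3 measured 73.9, 77.4, 90.4 and 1.67 TPM across A25, A30, A31 and A29 (log2 change 3.77 with SE 0.23, limma adjusted p = 4.5e-06). Trem2, a lipid-sensing receptor, stood between 0.598 and 1.99 TPM in the wild-type group, with 12.2, 16.3 and 17.05 TPM for A25, A30 and A31 and 0.615 TPM for A29 (log2 change 2.51 with SE 0.25, limma adjusted p = 4.3e-05). In each, A31 was highest and A29 lowest or nearly lowest of all 8 hearts.

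Chemokines and cytokines rose in 22 of 29 and fell in 0 (19 and 1 of 26 tested with median-of-ratios scaling). Ccl8, a monocyte chemokine, stood at 1.89, 0.697, 2.46 and 1.58 TPM in A5, A7, A8 and A14. Ccl8 was at 52.3, 69.9, 116 and 0.832 TPM across A25, A30, A31 and A29 (log2 change 4.50 with SE 0.32, limma adjusted p = 9.6e-06). Ccl2, another, stood between 0.623 and 3.29 TPM in the wild-type group, with 10.7, 25.6 and 28.4 TPM for A25, A30 and A31 and 1.34 TPM for A29 (log2 change 2.51 with SE 0.40, limma adjusted p = 0.00046). Of 20 complement genes, 17 rose and 1 fell (17 and 1 with median-of-ratios scaling). In the acute phase list, of 10 tested, 8 rose and 0 fell (6 and 1 with median-of-ratios scaling). Serpina3n, a protease inhibitor of that response, stood at 2.62, 5.37, 7.82 and 4.42 TPM in A5, A7, A8 and A14. Serpina3n measured 192, 215, 229 and 2.77 TPM across A25, A30, A31 and A29 (log2 change 4.81 with SE 0.27, limma adjusted p = 3.2e-06). Lcn2, a neutrophil and stress lipocalin, stood between 1.79 and 4.21 TPM in the wild-type group, with 7.79, 14.7 and 15.6 TPM for A25, A30 and A31 and 4.303 TPM for A29, where A29 lay just above the wild-type hearts and below the other knockout hearts.

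Of 24 interferon-stimulated genes, 19 rose and 0 fell (16 and 0 with median-of-ratios scaling). Ifi27l2a stood at 24.7, 25.3, 44.6 and 32.1 TPM in A5, A7, A8 and A14. Ifi27l2a was at 188, 287, 411 and 19.3 TPM across A25, A30, A31 and A29 (log2 change 2.76 with SE 0.28, limma adjusted p = 5.1e-05). Isg15, a ubiquitin-like modifier, stood between 3.66 and 7.37 TPM in the wild-type group, with 16.1, 21.5 and 30.8 TPM for A25, A30 and A31 and 2.77 TPM for A29 (log2 change 1.46 with SE 0.27, limma adjusted p = 0.00068). Ifit3, an antiviral protein, stood between 6.81 and 12.9 TPM in the wild-type group, with 26.7, 30.1 and 60.2 TPM for A25, A30 and A31 and 4.51 TPM for A29 (log2 change 1.52 with SE 0.31, limma adjusted p = 0.00126). A29 was the lowest of the 8 hearts for all 3. MHC class II genes, which present antigen, rose in 7 of 7 under both scalings, and H2-Ab1 stood between 12.1 and 20.9 TPM in the wild-type group, with 66.98, 84.2 and 78.7 TPM for A25, A30 and A31 and 15.2 TPM for A29 (log2 change 1.80 with SE 0.20, limma adjusted p = 5.9e-05). Lymphocyte markers were low: Cd3e and Ms4a1, chosen after their values were seen, were at no more than 0.822 TPM in any heart. The summed T and B cell list, 2 of whose 17 members were tested, was 6.68 to 12.2 TPM in wild-type hearts, 20.9 to 31.8 TPM for A25, A30 and A31, and 6.18 TPM in A29. Of the 2 tested members, 2 rose and 0 fell (1 and 0 with median-of-ratios scaling).

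Endothelial genes gave counts that turned with the scaling. Of 27, 5 rose and 2 fell (1 and 11 with median-of-ratios scaling). Pecam1, an endothelial adhesion molecule, stood between 38.7 and 51.7 TPM in the wild-type group, with 74.5, 67.7 and 71.99 TPM for A25, A30 and A31 and 40.1 TPM for A29 (log2 change 0.27 with SE 0.15, limma adjusted p = 0.00609) and did not pass with median-of-ratios scaling (limma adjusted p = 0.51). Plvap, of fenestrated and remodelling vessels, stood at 1.49, 1.7997, 1.63 and 2.89 TPM in A5, A7, A8 and A14. Plvap measured 10.2, 16.1, 13.2 and 1.67 TPM across A25, A30, A31 and A29 (log2 change 1.87 with SE 0.23, limma adjusted p = 0.00011). Vegfb, a growth factor abundant in cardiomyocytes, stood between 104 and 180.0 TPM in the wild-type group, with 86.5, 124 and 63.1 TPM for A25, A30 and A31 and 123 TPM for A29 (log2 change -1.16 with SE 0.25, limma adjusted p = 0.0351). Kdr, another member of the list, pointed down without passing (log2 change -1.03 with SE 0.32, limma adjusted p = 0.139). Kdr stood between 20.5 and 41.2 TPM in the wild-type group and between 12.9 and 32.99 TPM in A25, A30 and A31. A29 was at 24.02 TPM. The fold change of Kdr without A29 was -1.13 with median-of-ratios scaling and -0.91 after centring by length. Kdr passed in both (limma adjusted p = 0.00177 and 0.00202).

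Of 12 genes of the IGF growth factor system, 5 rose and 0 fell (4 and 2 with median-of-ratios scaling). Igf1 stood at 1.52, 2.72, 4.07 and 2.32 TPM in A5, A7, A8 and A14. Igf1 was at 19.02, 27.6, 34.6 and 2.31 TPM across A25, A30, A31 and A29 (log2 change 2.56 with SE 0.28, limma adjusted p = 7.6e-05). Igfbp7, a binding protein of the matrix, stood between 59.003 and 119 TPM in the wild-type group, with 570.1, 509 and 494 TPM for A25, A30 and A31 and 69.3 TPM for A29 (log2 change 2.13 with SE 0.22, limma adjusted p = 4.2e-05). Of 10 secreted WNT modulators, 7 rose and 0 fell (7 and 2 of 11 tested with median-of-ratios scaling). Sfrp2 stood between 0.337 and 1.67 TPM in the wild-type group, with 22.1, 36.2 and 21.5 TPM for A25, A30 and A31 and 0.483 TPM for A29 (log2 change 3.48 with SE 0.29, limma adjusted p = 2.1e-05). Dkk3 stood between 0.343 and 0.8699 TPM in the wild-type group, with 21.6, 13.8 and 19.2 TPM for A25, A30 and A31 and 0.426 TPM for A29 (log2 change 3.22 with SE 0.22, limma adjusted p = 7.2e-06). In the list of integrins, laminins and the dystrophin complex, of 25 tested, 7 rose and 3 fell (3 and 8 of 24 tested with median-of-ratios scaling), a balance that turned with the scaling. Dmd (dystrophin), a long transcript, fell (log2 change -1.72 with SE 0.27, limma adjusted p = 0.00438) and Itgbl1, an integrin-like secreted protein, rose (log2 change 2.78 with SE 0.20, limma adjusted p = 8.4e-06).

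Of 16 cytoskeletal genes, 13 rose and 1 fell (11 and 1 with median-of-ratios scaling). Tmsb10, an actin-sequestering thymosin, stood between 21.6 and 34.6 TPM in the wild-type group, with 133, 156 and 154 TPM for A25, A30 and A31 and 22.4 TPM for A29 (log2 change 1.93 with SE 0.18, limma adjusted p = 2.2e-05). Of 27 cell cycle genes, 21 rose and 0 fell (19 and 1 of 26 tested with median-of-ratios scaling). Ccnb1, the mitotic cyclin, stood between 0.197 and 0.536 TPM in the wild-type group, with 3.74, 3.44 and 4.17 TPM for A25, A30 and A31 and 0.4099 TPM for A29 (log2 change 1.34 with SE 0.17, limma adjusted p = 8.4e-05). Cdkn1a, the inhibitor p21, stood between 4.93 and 13.1 TPM in the wild-type group, with 41.4, 62.9 and 35.2 TPM for A25, A30 and A31 and 8.597 TPM for A29 (log2 change 1.78 with SE 0.32, limma adjusted p = 0.00068). Both a mitotic gene and an inhibitor of division were thus higher.

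Of 20 circadian genes, 2 rose and 3 fell (2 and 13 with median-of-ratios scaling). Dbp, an output of the clock, stood at 32.8, 50.6, 63.4 and 71.6 TPM in A5, A7, A8 and A14. Dbp measured 35.9, 20.7, 28.96 and 42.4 TPM across A25, A30, A31 and A29 (log2 change -1.28 with SE 0.28, limma adjusted p = 0.0298). Arntl (BMAL1), of the opposite phase, stood at 0.574, 1.05, 0.698 and 0.873 TPM in hearts A5, A7, A8 and A14. Arntl was at 1.41, 7.904, 3.77 and 0.592 TPM across A25, A30, A31 and A29 (log2 change 1.00 with SE 0.37, limma adjusted p = 0.0148). A30 had the lowest Dbp and the highest Arntl of the 8 hearts. The sources used here do not give the hour of tissue collection. Immediate early genes varied with the library: Egr1 stood at 0.957, 12.9, 13.4 and 11.8 TPM in A5, A7, A8 and A14. Egr1 measured 3.42, 10.9, 3.17 and 2.43 TPM across A25, A30, A31 and A29 and did not pass (limma adjusted p = 0.607). Of 19 immediate early genes, 5 rose and 0 fell (3 and 0 of 18 tested with median-of-ratios scaling).

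Of 10 tested genes of RNA-binding proteins that bind AU-rich elements, as HuR does, or belong to the Y-box family, 2 rose and 0 fell (0 and 1 with median-of-ratios scaling). Ybx2, a further Y-box protein that is not on that list, stood at 9.98, 23.9, 18.4 and 19.9 TPM in A5, A7, A8 and A14. Ybx2 was at 3.66, 4.93, 3.47 and 9.75 TPM across A25, A30, A31 and A29 (log2 change -2.26 with SE 0.28, limma adjusted p = 0.00075). Of 12 splicing regulators, 1 rose and 1 fell (1 and 6 with median-of-ratios scaling), and Rbfox1, a splicing factor of muscle and neurons, stood at 6.64, 10.6, 13.3 and 11.1 TPM in hearts A5, A7, A8 and A14. Rbfox1 measured 1.36, 2.81, 1.22 and 5.88 TPM across A25, A30, A31 and A29 (log2 change -2.42 with SE 0.28, limma adjusted p = 0.00045). Of 9 receptors for signals from fat, 0 rose and 0 fell without A29 by limma, and 0 and 3 with median-of-ratios scaling. The adiponectin receptor Adipor1 stood at 46.8 to 58.0 TPM in wild-type and 53.1 to 65.7 TPM in knockout hearts, and Adipor2 at 21.9 to 30.2 and 23.8 to 33.8 TPM. Their fold changes before subtraction turned in sign with the scaling (limma adjusted p = 0.521 and 0.646 with all 8 libraries).

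Some of the largest falls lay outside these lists. Efnb3, an ephrin ligand, stood at 22.4, 38.2, 31.5 and 23.1 TPM in A5, A7, A8 and A14. Efnb3 was at 0.844, 1.11, 0.467 and 20.8 TPM across A25, A30, A31 and A29 (log2 change -4.42 with SE 0.24, limma adjusted p = 7.1e-06). Mylk4, a myosin light chain kinase family member, stood at 30.4, 47.1, 61.8 and 58.7 TPM in hearts A5, A7, A8 and A14. Mylk4 measured 4.88, 7.64, 3.67 and 37.9 TPM across A25, A30, A31 and A29 (log2 change -3.37 with SE 0.29, limma adjusted p = 7.6e-05). Ano10, of the anoctamin family, stood between 53.3 and 85.6 TPM in the wild-type group, with 10.98, 14.1 and 11.9 TPM for A25, A30 and A31 and 86.2 TPM for A29 (log2 change -2.83 with SE 0.19, limma adjusted p = 2.6e-05). Ces1d, a carboxylesterase that hydrolyses lipids, stood between 51.9 and 78.1 TPM in the wild-type group, with 13.4, 14.7 and 14.3 TPM for A25, A30 and A31 and 63.1 TPM for A29 (log2 change -2.46 with SE 0.17, limma adjusted p = 3.1e-05). In Ano10 A29 was the highest of all 8 hearts. Among the largest rises, Nmrk2, a muscle enzyme that makes NAD from nicotinamide riboside, stood at 0.894, 3.23, 4.67 and 5.95 TPM in A5, A7, A8 and A14. Nmrk2 was at 255, 172, 196 and 2.51 TPM across A25, A30, A31 and A29 (log2 change 5.22 with SE 0.39, limma adjusted p = 1.5e-05). Sprr1a, a small proline-rich protein induced in stressed cardiomyocytes, did not exceed 0.127 TPM in the wild-type group and stood at 29.6, 39.1 and 29.9 TPM for A25, A30 and A31 and was listed at 0 in A29 (log2 change 4.58 with SE 0.19, limma adjusted p = 1.4e-06). Pdlim5 and Klhl38 had some of the smallest p-values with all 8 libraries without passing (limma adjusted p = 0.142 for both). Klhl38, a muscle kelch protein, stood at 17.2, 18.5, 15.8 and 15.99 TPM in A5, A7, A8 and A14. Klhl38 measured 6.99, 6.22, 5.28 and 8.596 TPM across A25, A30, A31 and A29, and here the 4 knockout hearts, A29 included, lay below every wild-type heart.

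Markers of further cell types are given as measured. Mural cell genes summed to 233 to 320.1 TPM in wild-type and 246 to 452 TPM in knockout hearts, and of 10 tested, 5 rose and 0 fell (3 and 2 with median-of-ratios scaling). Erythroid genes, which follow the blood left in the tissue, summed to 1352 to 2905 TPM in wild-type hearts and to 3515, 1411, 1267 and 6705 TPM in A25, A29, A30 and A31, and 0 of 5 passed. Adipoq was highest in the wild-type heart A8, at 1.72 TPM, and at no more than 0.336 TPM in knockout hearts. The summed skeletal muscle list was 2.68 to 3.16 TPM in wild-type hearts and 3.62 to 10.2 TPM in knockout hearts. The part of blood, vessel wall or other cell types in the differences above was not tested. Nnt, known to carry a deletion in the C57BL/6J strain, stood at 63.2, 123, 144 and 144 TPM in A5, A7, A8 and A14. Nnt was at 70.6, 119, 56.1 and 99.8 TPM across A25, A30, A31 and A29, with no heart near 0. A value for the whole gene cannot show whether part of it is missing, so which Nnt allele the mice carried was not tested. Glo1, a gene whose copy number varies between strains, stood at 38.4 to 47.1 TPM in wild-type and 46.2 to 60.6 TPM in knockout hearts.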

How the data were processed

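Left ventricle RNA from 8 mice, 1 library each, was prepared with a TruSeq kit per the labels' protocols. The authors deposited TPM values for 33641 gene symbols per library. No source used here names the aligner, quantifier, annotation or build. The files hold no counts, so depth is unknown. TPM values sum to the same total in every library, so a change in abundant transcripts shifts all others.

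Genes averaging 1 TPM or more in the libraries fitted were tested on log2(TPM + 1) with limma 3.58.1 in R 4.3.3 (trended eBayes, two-sided, Benjamini-Hochberg adjusted p of at most 0.05). Median-of-ratios scaling divided each library by its median ratio to the geometric mean of all libraries. The procedure was tested on simulated data. Shares were compared with two-sided exact permutation tests, which cannot go below 0.0286 for 4 against 4 or 0.0571 for 3 against 4. The members and gene lists were chosen with earlier results of these data known. Named genes were Elavl1, the genes that passed with all 8 libraries, those with the next smallest p or the largest changes without A29, and the leading core members of each list. Others are said to be chosen after their values were seen. Some genes that fell under this rule are not reported here. Promoters came from RefSeq (GRCm38.p6) and transcript lengths from GENCODE. Alternatives covered the pseudocount, filter, scaling, variance model, library weights, the libraries fitted and transcript length.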

Additional observations from a re-analysis of the deposited data

Results flagged for a closer look

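Within a group of 4 hearts, the gap of a library to the nearest of the other 3 was divided by the group's whole range. For genes this ratio was taken on log2(TPM + 1). A library was singled out when the ratio passed Dixon's critical value, which chance passes in about 1 in 20 groups. Of 400 group values examined, 77 (19.2%) passed it, 47 of them in A29, 25 in A5, 3 in A14, 1 in A7 and 1 in A8. The values examined were those of the named genes and shares. Many of these genes were named for a large change without A29, which itself sets A29 apart. The share that passed is therefore a description and cannot be set against chance. The values printed below are TPM unless a percent is named.

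In A29, matrix and mesenchymal genes stood far below the other 3 knockout hearts, with Postn at 13.1, Timp1 at 0.9, Comp at 0.518, Cilp at 1.09, Thbs4 at 0.871, Cthrc1 at 0.019, Spp1 at 0.076, Aspn at 11.9, Meox1 at 3.63, Igfbp7 at 69.3, Dkk3 at 0.426, Sfrp2 at 0.483, Itgbl1 at 1.97, Tagln at 13.6 and Pdpn at 1.38. Immune and acute phase genes did so too, with Serpina3n at 2.77, Lyz2 at 74.5, Trem2 at 0.615, Lgals3 at 1.67, Ifitm3 at 47.6, H2-Ab1 at 15.2 and H2-Aa at 22.2. Genes that were low in the other 3 knockout hearts stood far above them in A29, with Efnb3 at 20.8, Pfkfb1 at 10.6, Ano10 at 86.2 and Ces1d at 63.1. The further genes set apart in A29, each lower there than in the other 3 knockout hearts, were Pdlim5 at 467, Nmrk2 at 2.51, Nppa at 52.7, Sprr1a at 0, Xirp2 at 63.8, Fhl1 at 45.8, Rcan1 at 22.4, Gja5 at 1.34, Grk5 at 8.57, Rpl3 at 75.8, Psmd1 at 40.8, Mthfd2 at 0.839, Phgdh at 0.328, Asns at 0.535, Atf4 at 35.2, Gpx3 at 63.4, Pecam1 at 40.1, Tmsb10 at 22.4, Ccnb1 at 0.41, Junb at 4.43 and Ier2 at 5.23.

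The wild-type heart A5 lay below the other 3 wild-type hearts for Adra1a at 4.17, Wnk2 at 3.37, Fyco1 at 52.8, Col3a1 at 13.7, Col1a2 at 6.71, Col1a1 at 2.15, Ttn at 37.1, Cacna1c at 15.8, Ryr2 at 70.3, Gja5 at 1.46, Acadm at 456, Ogdh at 297, Cs at 248, Ndufs1 at 178, Perm1 at 58.5, Nox4 at 0.238, Vegfb at 104, Ccnb1 at 0.197, Ciart at 5.25, Junb at 2.85, Egr1 at 0.957, Rbm24 at 32.5 and Erbb4 at 0.639. Its mitochondrially encoded share was the highest of the wild-type hearts, at 60.6%, and its mt-Nd3 share of the mitochondrially encoded complex I subunits the lowest, at 0.944%. A14 lay above the other wild-type hearts for Gm13212 at 2.55, Zfp982 at 4.64 and Zfp984 at 1.81, A7 for Lox at 1.24 and A8 for Spp1 at 0.232.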

How the results depend on the processing

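The counts of heart genes higher and heart genes lower with all 8 libraries (6 and 0) were 4 and 0 with pseudocounts of 0.25 and 5, 9 and 2 with no filter, 2 and 0 at a mean TPM of at least 5, 6 and 0 with median-of-ratios or quantile scaling, 4 and 0 with mitochondrially encoded genes removed, 5160 and 2725 with array weights, 748 and 98 with all 16 libraries in 1 fit, and 4 and 1 with transcript length centring. The array weights were 0.103 for A29 and 0.173 for A5, against 0.326 for A30 and up to 7.26 for A25. That fit therefore gave A29 little part. Leaving out 1 library gave 3 to 4203 higher and 0 to 502 lower, both maxima without A29. Leaving out A14 gave 7 higher and each of the other 6 gave 3. Alternatives chosen after seeing the data, without A29, gave 2340 and 2499 with median-of-ratios scaling, 2588 and 2676 with quantile normalization, 3803 and 1179 with mitochondrially encoded genes removed, and 2621 and 2598 with length centring. The causes were not tested. The log2 fold change of Elavl1 in heart, 0.046 before subtracting the median of all genes, was -0.246 under median-of-ratios scaling, -0.227 under quantile normalization, -0.125 under removal of mitochondrially encoded genes, -0.191 under array weights, -0.344 without A29 with median-of-ratios scaling, -0.3 without A29 with quantile normalization, -0.111 without A29 with mitochondrially encoded genes removed, -0.099 under transcript length centring and -0.149 without A29 with transcript length centring, and -0.138 to 0.141 when 1 library was left out; the cause was not tested. The mt-Nd3 percent of mitochondrially encoded complex I subunits differed by 7.598 to 8.448 percentage points when 1 library was left out, where the smallest exact permutation p is 0.0571. Single named genes that changed sign, as log2 fold changes before that subtraction, were as follows, with the cause not tested. Without A29 with median-of-ratios scaling, Casq2 at -0.038, Oxct1 at -0.25, Mrpl12 at -0.145, Mrps15 at -0.329, Psmd1 at -0.105, Ybx1 at -0.168, Adipor1 at -0.279, Adipor2 at -0.261, Wt1 at -0.008, Ddx3y at -0.113 and Glo1 at -0.079. Without A29 with quantile normalization, Casq2 at -0.027, Oxct1 at -0.206, Mrpl12 at -0.103, Mrps15 at -0.264, Psmd1 at -0.013, Ybx1 at -0.223, Adipor1 at -0.193, Adipor2 at -0.195, Cdh19 at -0.041, Wt1 at -0.075 and Ddx3y at -0.038. Under median-of-ratios scaling, Oxct1 at -0.076, Mrps15 at -0.154, Psmd1 at -0.017, Ybx1 at -0.055, Adipor1 at -0.144, Adipor2 at -0.163 and Wt1 at -0.04. Under quantile normalization, Oxct1 at -0.122, Mrps15 at -0.143, Ybx1 at -0.174, Adipor1 at -0.127, Adipor2 at -0.146 and Wt1 at -0.072. Without A29 with transcript length centring, Oxct1 at -0.118, Mrpl12 at -0.203, Mrps15 at -0.506, Psma1 at -0.002, Psmd1 at -0.004, Ybx1 at -0.19, Adipor1 at -0.154, Adipor2 at -0.118, Mylpf at -0.039, Wt1 at -0.076 and Eif2s3y at -0.026. Under transcript length centring, Mrpl12 at -0.039, Mrps15 at -0.35, Ier2 at -0.034, Ybx1 at -0.118, Adipor1 at -0.06, Adipor2 at -0.06, Mylpf at -0.016, Hbb-bt at -0.076, Wt1 at -0.092 and Eif2s3y at -0.009. Under removal of mitochondrially encoded genes, Mrps15 at -0.018, Adipor1 at -0.005 and Adipor2 at -0.027. Without A29 with mitochondrially encoded genes removed, Mrps15 at -0.075, Adipor1 at -0.021 and Adipor2 at -0.009. When 1 library was left out, Hbb-bt ranged from -0.063 to 0.764. When 1 library was left out, Ier2 ranged from -0.01 to 0.623. Of the single genes' other values under alternatives, 4540 kept their direction and call, 1040 newly passed, 28 no longer passed and 258 moved. No sequencing depth is given, so the precision of low TPM values could not be set. No paired analysis was possible because each heart came from a different mouse and the labels give no number that the groups share.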
